A study of Mus musculus with 28 samples.

Results

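The postsynaptic density genes described here are 8 genes chosen by symbol from the deposited table of read counts: the calcium/calmodulin-dependent kinase subunits Camk2a and Camk2b, the scaffold genes Dlg4, Shank1, Shank3 and Homer1, and the calmodulin signalling genes Nrgn and Ppp3ca. All 8 symbols were found among the 24062 genes of the table, and all 8 passed the filter on low counts, which kept 16369 genes. Bulk RNA-seq of hippocampus measured them in 28 libraries from female mice, in 7 groups of 4. The 3xTg line, which models Alzheimer's disease, has mutant human amyloid precursor protein and tau transgenes under Thy1 regulatory sequences. Its groups received NAVI, DQ or 1 of 2 vehicles labelled VehN and VehD. Wild-type mice (WT), whose genotype label reads BL6/129, received NAVI, DQ or a vehicle labelled only Veh. The series' design text names the drugs as ABT263 (navitoclax, which blocks BCL-2 family proteins that prevent apoptosis) and dasatinib+quercetin (a kinase inhibitor given with a flavonoid), and the title places both as treatments to remove senescent cells. The sources used here do not give age, dose or schedule, nor whether every library comes from a different mouse, so p-values measure the spread between these libraries.

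The postsynaptic density is the protein mesh under the membrane of an excitatory synapse, on the head of a dendritic spine, where it holds glutamate receptors in place and links them to signalling enzymes and actin. Calcium that enters through NMDA receptors binds calmodulin, which activates CaMKII and calcineurin; CaMKII activity strengthens synapses and calcineurin activity weakens them. The scaffolds are stacked in layers, with PSD-95 under the receptors and Shank and Homer proteins deeper in the spine, and all of them are abundant in the pyramidal and granule neurons of the hippocampus.

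Start windows of 4 of the genes are shown because they set the genes that varied together across the libraries (Camk2b, Nrgn and Shank3) beside Homer1, which did not vary with them; they illustrate and do not represent all entries. Each is the 250 bases before the annotated start in the RefSeq promoter table of build GRCm38, 5′ to 3′ on the strand of the gene, with capitals for a GC box (GGGCGG) or the core of a cAMP response element (TGACG) on either strand. The windows are chr11:6065749-6065998 on the minus strand for Camk2b, chr9:37552746-37552995 on the minus strand for Nrgn, chr15:89499358-89499607 on the plus strand for Shank3 and chr13:93303507-93303756 on the plus strand for Homer1.
Camk2b: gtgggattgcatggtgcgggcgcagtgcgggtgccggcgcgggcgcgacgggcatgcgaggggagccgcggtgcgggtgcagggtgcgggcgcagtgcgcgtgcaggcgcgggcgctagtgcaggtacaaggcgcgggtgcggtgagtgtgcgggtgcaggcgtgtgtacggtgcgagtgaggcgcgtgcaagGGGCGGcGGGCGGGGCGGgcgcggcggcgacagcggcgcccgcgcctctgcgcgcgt
Nrgn: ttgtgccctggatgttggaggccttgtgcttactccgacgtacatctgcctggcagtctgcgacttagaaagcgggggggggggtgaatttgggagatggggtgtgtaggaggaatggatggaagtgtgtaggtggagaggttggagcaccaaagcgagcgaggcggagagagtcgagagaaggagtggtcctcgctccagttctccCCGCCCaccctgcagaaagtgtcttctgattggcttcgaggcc
Shank3: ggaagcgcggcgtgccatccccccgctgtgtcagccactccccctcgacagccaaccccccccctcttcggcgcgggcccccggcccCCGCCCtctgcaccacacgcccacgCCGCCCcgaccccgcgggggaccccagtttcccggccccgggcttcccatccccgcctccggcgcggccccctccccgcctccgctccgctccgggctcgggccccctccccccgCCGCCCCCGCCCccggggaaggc
Homer1: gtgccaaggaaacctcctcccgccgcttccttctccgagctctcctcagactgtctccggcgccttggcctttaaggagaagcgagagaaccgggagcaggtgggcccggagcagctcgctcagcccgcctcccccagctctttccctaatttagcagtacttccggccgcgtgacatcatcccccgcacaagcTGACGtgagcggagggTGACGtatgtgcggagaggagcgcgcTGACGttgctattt
The GC box was found 3 times before Camk2b, 4 times before Shank3 and 1 time before Nrgn, and not before Homer1; 33.0% of 32536 such mouse windows hold at least 1. TGACG was found 3 times before Homer1 and in none of the other windows printed, and 17.9% of all windows hold at least 1. GC content was 78.4% before Camk2b, 82.4% before Shank3, 58.4% before Nrgn and 62.4% before Homer1, against a median of 52.4% over all windows. These matches describe letters in the windows and not binding sites. The Shank3 start did not match a GENCODE transcript start. A second Homer1 window, not printed, holds neither motif and has a GC content of 46.8%. Dlg4, which varied with the block, has 3 windows of 47.2%, 56.8% and 68.0% GC; the second of these holds 1 GC box and 1 TGACG, and the others neither. The motifs differ between Homer1 and the others in the 4 windows printed. With the windows not printed included, they do not separate the genes that varied together from Homer1. Camk2a, Shank1 and Ppp3ca have no entry.

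Libraries held 32080861 to 54019519 counts, and the 8 genes together took 0.655% to 0.886% of the counts of a library. App and Thy1, which share sequence with the transgenes, separated the genotypes in all 28 libraries: App was at 1470 to 1800 CPM in WT (CPM being counts scaled to the size of the library) and 2410 to 3805 CPM in 3xTg. The summed level of 12 thalamus markers differed between libraries of a group: 415 to 1416 CPM in 3xTg VehN, 393 to 927 CPM in 3xTg VehD, 402 to 875 CPM in 3xTg NAVI, 408 to 453 CPM in 3xTg DQ and 412 to 726 CPM in the 12 WT libraries. Summed choroid plexus markers ran from 74.0 to 5964 CPM over all libraries. The 8 hippocampal subfield markers were detected in every library, at a summed 601 to 871 CPM, and no marker of any list was at 0 in any library.

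Levels are given as CPM, counts divided by library size after TMM scaling. Camk2a, the alpha subunit of CaMKII and the most abundant of the 8 (chr18:60925307-60988152), ran from 3154 to 4721 CPM. Ppp3ca, a catalytic subunit of calcineurin (chr3:136669714-136937727), ran from 1418 to 2033 CPM, and Camk2b, the beta subunit of CaMKII (chr11:5969629-6066357), from 700.3 to 1202 CPM. Lower levels were found for Dlg4, which encodes PSD-95 (chr11:70017203-70045535, 353 to 641 CPM), and for Nrgn, which encodes neurogranin, a small protein that binds calmodulin (chr9:37544493-37552745, 213 to 435 CPM). Shank1 (chr7:44308916-44360094), Homer1 (chr13:93303757-93405129) and Shank3 (chr15:89493013-89560261) each stayed between 69.8 and 226 CPM. Per kilobase of the longest transcript the mean over the 28 libraries was 739.7 CPM for Camk2a, 343 for Ppp3ca, 237 for Camk2b, 198 for Nrgn, 88.0 for Dlg4, 24.8 for Homer1 and 15.4 for both Shank1 and Shank3. The ranges over the libraries separated Camk2a from Ppp3ca and Dlg4 from its neighbours in that order. Ppp3ca and Camk2b touched at their ends, and Camk2b overlapped with Nrgn, as Homer1, Shank1 and Shank3 did with each other. Ppp3ca varied least, with the highest library at 1.43 times the lowest, and Shank1 and Shank3 most, at 2.15 and 2.13 times.

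**Figure D1:**
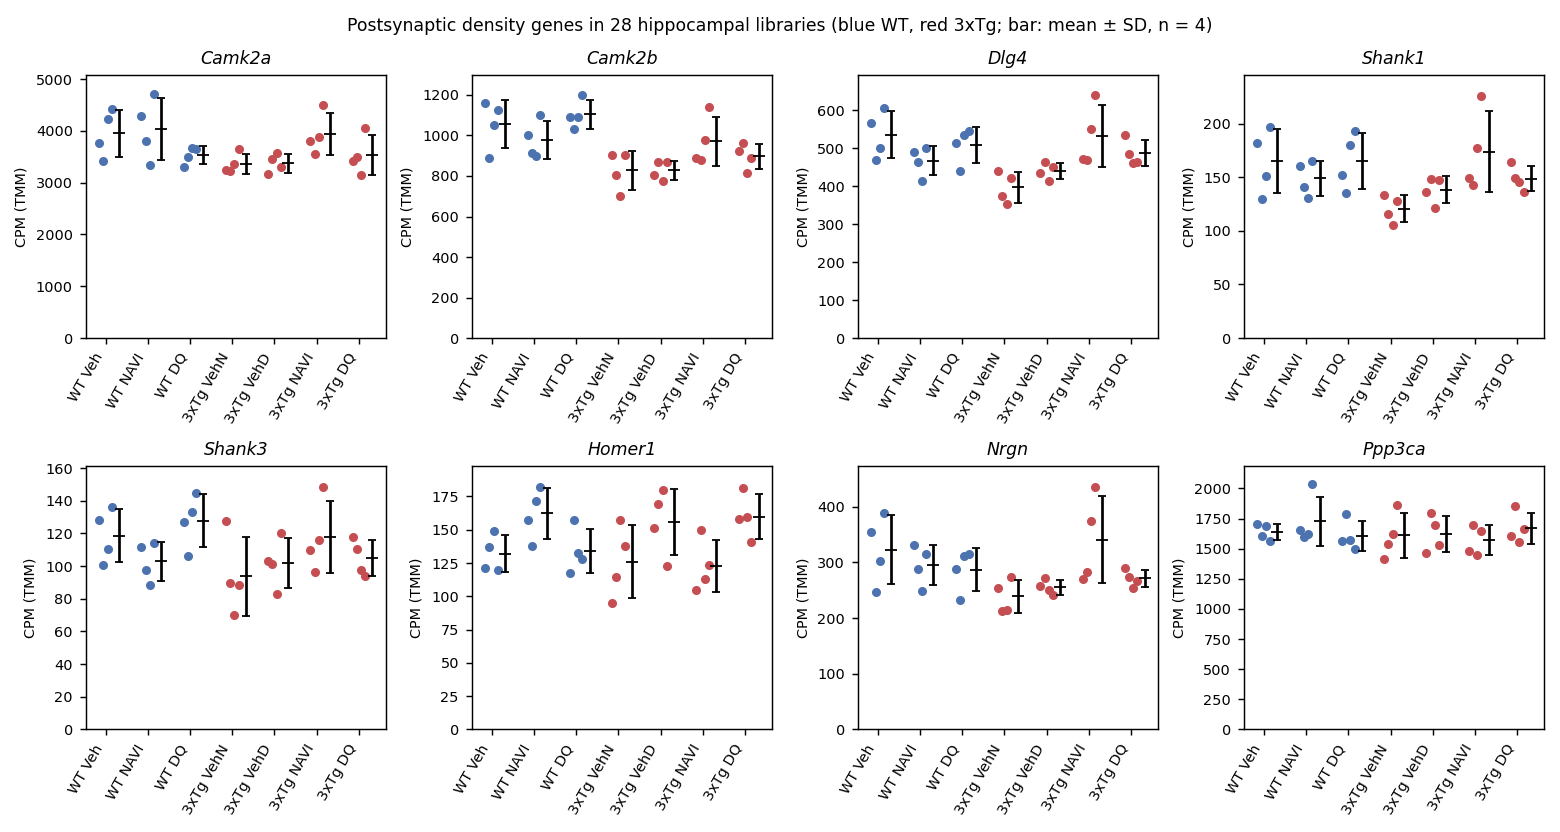
CPM (TMM-scaled, axis from 0) of the 8 genes in each of the 28 libraries, by group, with the mean ± SD of the 4 libraries of a group at the right of its points. In the Dlg4 panel the 8 libraries of 3xTg VehN and VehD lie between 353 and 465 CPM, below the 4 WT vehicle libraries at 470 to 606 CPM.

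The first comparison asked how the hippocampus of vehicle-treated 3xTg mice differed from WT, and set the mean of both 3xTg vehicle groups against the WT vehicle group. The vehicle labels differ between the genotypes, so a difference of genotype and one of vehicle cannot be told apart here. With vehicle, 4 of the 8 genes were lower in 3xTg: Camk2b, Dlg4, Shank1 and Nrgn fell by 21.6%, 21.9%, 21.6% and 23.4% (edgeR adjusted p under 0.05, fitted over 16369 genes, of which 13.1% were called, 7.4% lower and 5.68% higher). None of the 8 was higher. The median log2 difference of the 8 genes was -0.31, against 0.01 over all genes tested. In bulk tissue, fewer cells of a type and less RNA per cell cannot be told apart.

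Of the kinase subunits, Camk2b was at 891, 1049.8, 1125 and 1159.5 CPM in WT vehicle, at 700.3, 803, 902 and 906 CPM in 3xTg VehN and at 773, 807, 867 and 869.7 CPM in 3xTg VehD. The lowest WT library lay within the 3xTg range, and 6 of the 8 3xTg libraries lay below all 4 of WT. The log2 difference was -0.35 (edgeR adjusted p = 0.00684, SE 0.0806). Camk2a, the partner subunit in the same holoenzyme, was at 3958 ± 454 CPM (SD, n = 4) in WT vehicle, 3369 ± 193 CPM (n = 4) in VehN and 3373 ± 183 CPM (n = 4) in VehD. Its log2 difference of -0.23 (edgeR adjusted p = 0.0626, SE 0.0832) did not pass the threshold, and 5 of 8 3xTg libraries lay below all of WT.

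Among the scaffolds, Dlg4 was at 470.4, 502, 568 and 606 CPM in WT vehicle, 353, 373, 423 and 442 CPM in VehN and 414, 435, 450.0 and 465 CPM in VehD. All 8 3xTg libraries lay below all 4 of WT, and it was the one member of the 8 whose groups did not overlap here. Its log2 difference was -0.36 (edgeR adjusted p = 0.00775, SE 0.0836). The share of all genes whose groups did not overlap was not counted, here or in the comparisons below. Shank1, a deep-layer scaffold that links the PSD-95 complex to Homer and actin, was at 129.8, 151, 182 and 196 CPM in WT vehicle, 105, 116, 128 and 133 CPM in VehN and 122, 137, 147 and 149 CPM in VehD. The lowest WT library lay within the 3xTg range, and the log2 difference was -0.35 (edgeR adjusted p = 0.0463, SE 0.116). Its paralog Shank3 was at 100.4 to 136 CPM in WT vehicle, 69.8 to 127 in VehN and 83.1 to 120.5 in VehD, with a log2 difference of -0.28 (edgeR adjusted p = 0.142, SE 0.131). Homer1, whose long forms bridge Shank to metabotropic glutamate receptors and whose short form is made on neuronal activity, was at 120.0 to 149 CPM in WT vehicle and 95.1 to 157 in VehN and 123 to 180.0 in VehD. Its log2 difference was 0.09 (edgeR adjusted p = 0.638, SE 0.122); counts per gene do not separate its forms.

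Of the calmodulin signalling genes, Nrgn was at 247, 302, 354 and 388 CPM in WT vehicle, 213, 215, 255 and 274 CPM in VehN and 241, 250.4, 257 and 272 CPM in VehD. 3 of the 4 WT libraries stood above all of 3xTg and the lowest lay among them. The log2 difference was -0.39 (edgeR adjusted p = 0.0330, SE 0.118). Ppp3ca was at 1565 to 1701 CPM in WT vehicle, inside the ranges of VehN (1418 to 1859.7 CPM) and VehD (1465 to 1796 CPM), with a log2 difference of -0.02 (edgeR adjusted p = 0.871, SE 0.0769).

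Camk2b passed the threshold in all 22 alternative settings, with log2 differences from -0.47 to -0.19, and Dlg4 in 20, the exceptions being the fit with VehD as the single 3xTg vehicle (-0.28, edgeR adjusted p = 0.103) and the fit that left out replicate 4 of WT vehicle (-0.29, edgeR adjusted p = 0.0626). Shank1 lost its call without WT vehicle replicate 1, 3 or 4, VehN replicate 2 or 3, or VehD replicate 1, 3 or 4 (edgeR adjusted p from 0.0515 to 0.237), and Nrgn without WT vehicle replicate 1, 3 or 4, VehN replicate 2 or 3, or VehD replicate 3 or 4 (edgeR adjusted p from 0.0511 to 0.194). Shank1 also lost it with no filter on low counts (edgeR adjusted p = 0.0531), with only the libraries of the comparison (edgeR adjusted p = 0.0564) and with VehD as the single 3xTg vehicle (-0.25), where Nrgn lost its call too (-0.34). Without WT vehicle replicate 4 only Camk2b was called. In DESeq2 Camk2a was called as well (adjusted p = 0.0430). Camk2a passed when replicate 2 of WT vehicle was left out (-0.30, edgeR adjusted p = 0.0237), and Shank3 without VehN replicate 1 (-0.38, edgeR adjusted p = 0.0276). Beside these differences, 3 of 8 hippocampal subfield markers and 2 of 8 excitatory neuron markers were lower in 3xTg with vehicle. The summed subfield markers were at 749.9 to 786 CPM in WT vehicle, 601 to 685 in VehN and 633 to 727 in VehD. The summed excitatory neuron markers were at 2219 to 2541 CPM in WT vehicle, 1924 to 2269 in VehN and 2122 to 2438 in VehD. Of the glial lists, 4 of 8 astrocyte markers, 2 of 8 oligodendrocyte markers and 1 of 8 microglia markers were higher in 3xTg and none was lower. The summed astrocyte markers were at 2805 to 3114 CPM in WT vehicle, 3369 to 4175 in VehN and 3666 to 4157 in VehD, with no overlap between the genotypes. Of 8 endothelial markers 2 were lower, and of 8 inhibitory neuron markers 1 was. The part of these cell types in the differences of the 8 genes was not tested. All 12 thalamus markers and all 12 choroid plexus markers had positive log2 differences, with 1 and 0 called. With thalamus and choroid plexus scores as covariates Camk2b (-0.34) and Dlg4 (-0.34) were called, while Shank1 (-0.32) and Nrgn (-0.32) were not.

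**Figure D2:**
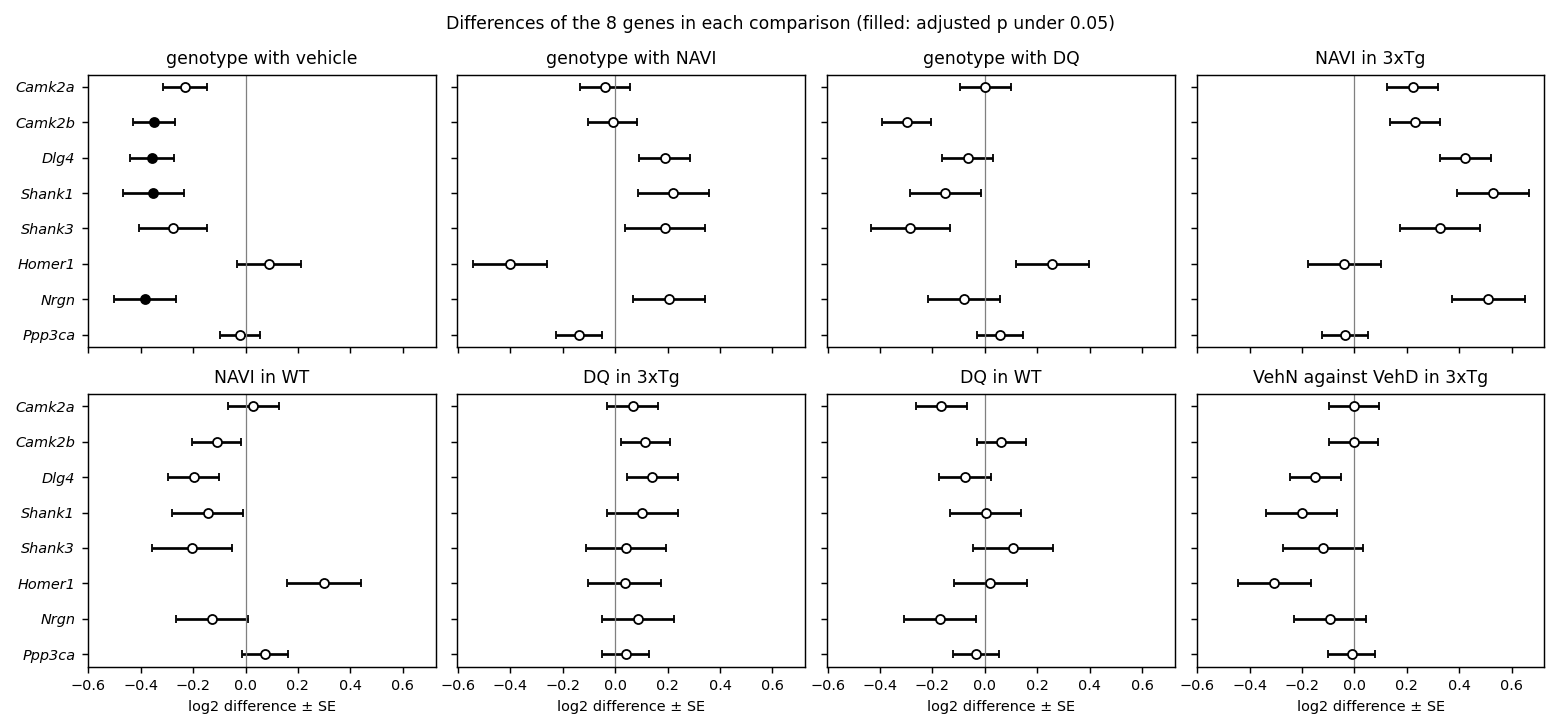
Log2 difference ± SE (horizontal axis) of the 8 genes (vertical axis) in 8 comparisons, each in a panel of its own; filled points have an edgeR adjusted p under 0.05. The 4 filled points are Camk2b, Dlg4, Shank1 and Nrgn in the genotype comparison with vehicle, and no point is filled in the other 7 panels.

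A wider list of 56 other postsynaptic genes was examined in the same fit, and all 56 were tested. The list, like the 8 genes, was chosen with earlier results of these data known. Its counts are therefore descriptions and not tests against all genes. With vehicle, 18 of the 56 were lower in 3xTg and 1 was higher, with a median log2 difference of -0.13, where 7.4% of all genes were lower and 5.68% higher. By role, 15 of 35 scaffold and spine genes and 3 of 10 kinases or kinase regulators were lower, and none of 7 calcineurin or 4 calmodulin genes was, groups too small to read against the share of all genes. Nlgn2, a neuroligin of inhibitory synapses, had the smallest p, with a log2 difference of -0.28 (edgeR adjusted p = 0.000619, SE 0.0484). Other genes with small p were Dlgap2 (-0.28) and Dlgap4 (-0.35), which link PSD-95 to Shank, the actin and spine genes Ddn (-0.34), Synpo (-0.34), Ppp1r9b (-0.40) and Baiap2 (-0.38), the GTPase regulators Sipa1l1 (-0.25) and Agap2 (-0.33), and the kinase Camkk2 (-0.29). The single higher gene was Rcan3, a regulator of calcineurin named after its value was seen, at 0.20 (edgeR adjusted p = 0.0345, SE 0.0610). The count of 19 called genes became 1 with VehD as the single 3xTg vehicle and 8 after removal of the libraries' GC trends, and lay between 6 and 21 when 1 library was left out. It was 6 without WT vehicle replicate 4, 7 without replicate 1 and 12 without replicate 3 of that group, 10 and 11 without VehN replicate 2 and 3, and 11 without VehD replicate 3.

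The genotypes were also compared under each drug. With NAVI, none of the 8 genes passed, while 5.98% of all genes did, 3.29% higher and 2.69% lower. Homer1 had the smallest p: it was at 105, 113, 123 and 149.9 CPM in 3xTg NAVI and at 138, 157, 172 and 182 CPM in WT NAVI. 3 of the 4 3xTg libraries lay below all of WT, and the log2 difference was -0.40 (edgeR adjusted p = 0.0808, SE 0.140). Dlg4, Shank1, Shank3 and Nrgn had positive log2 differences of 0.19, 0.22, 0.19 and 0.21, and Camk2b, at 971 ± 119.7 CPM (SD, n = 4) against 978 ± 92.3 CPM (n = 4), had -0.01 (edgeR adjusted p = 0.954, SE 0.0942). Homer1 was called without 3xTg NAVI replicate 2 (-0.51, edgeR adjusted p = 0.0321). In the wider list, Camk2n1, an inhibitor of CaMKII, was lower in 3xTg at -0.54 (edgeR adjusted p = 0.0459, SE 0.162) and was the single gene called; the count was 0 without 3xTg NAVI replicate 1, 3 or 4 or WT NAVI replicate 1, 2 or 3, and 4 without 3xTg NAVI replicate 2.

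With DQ, none of the 8 genes passed, while 3.05% of all genes did, 1.68% higher and 1.37% lower. Camk2b was at 816, 889, 925 and 962 CPM in 3xTg DQ and at 1033, 1090.0, 1091 and 1202 CPM in WT DQ. The groups did not overlap, and the log2 difference of -0.30 (edgeR adjusted p = 0.0908, SE 0.0943) missed the threshold. It passed in DESeq2 (adjusted p = 0.0443) and in edgeR with only the 8 libraries of the comparison (adjusted p = 0.0477). Shank3 and Homer1 had log2 differences of -0.28 and 0.26, and the remaining 5 genes lay between -0.15 and 0.06. In the wider list Rcan3 was higher (0.30, edgeR adjusted p = 0.0148) and Arc, an immediate early gene whose protein acts in the spine, was lower (-0.94, edgeR adjusted p = 0.0356). The count of 2 became 0 without 3xTg DQ replicate 1 or 3 or WT DQ replicate 3 or 4, and 1 without 3xTg DQ replicate 2 or 4 or WT DQ replicate 1.

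VehN, the vehicle whose label ends in the first letter of NAVI, was the reference for that drug in 3xTg. None of the 8 genes passed, as none of the 16369 genes did (0% called, 4759 at an unadjusted p under 0.05 in edgeR, 2000 called by DESeq2). Dlg4, Shank1 and Nrgn had unadjusted edgeR p of 0.000219, 0.000685 and 0.00109. The adjustment gave all 3 the same value, the lowest of the comparison. Genes with unequal p can share this value, so it does not rank the 3 above all other genes. Dlg4 was at 469, 472, 550.4 and 641 CPM with NAVI against 353, 373, 423 and 442 CPM with VehN. The groups did not overlap, and the log2 difference was 0.42 (edgeR adjusted p = 0.0595, SE 0.0980). Shank1 was at 143, 149, 177 and 226 CPM with NAVI, also above all 4 VehN libraries, and its log2 difference was 0.53 (edgeR adjusted p = 0.0595, SE 0.136). Nrgn was at 271, 283, 374 and 435 CPM with NAVI, with 3 libraries above all of VehN, and its log2 difference was 0.51 (edgeR adjusted p = 0.0595, SE 0.138). In each of these genes 2 NAVI libraries, replicates 3 and 4, stood above the other 2. Shank3, Camk2b and Camk2a had log2 differences of 0.32, 0.23 and 0.22, and Homer1 and Ppp3ca both had -0.04. The median of the 8 was 0.28, against -0.01 over all genes. The VehN libraries also enter the genotype comparison with vehicle, with the opposite sign. The values of both comparisons are therefore not independent, and neither is used as support for the other.

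The adjusted p of this comparison crossed the threshold in several alternatives, in which 1 to 5 of the 8 genes were called higher. The number called over all genes also moved widely with the setting, as given below. The counts of the 8 genes are therefore not particular to them. Without VehN replicate 1, the library with the highest summed thalamus markers, 5 were called (Dlg4 0.49, Shank1 0.59, Nrgn 0.56, Shank3 0.52 and Camk2b 0.29). Without NAVI replicate 1 or NAVI replicate 2 it was 3, and without VehN replicate 4 only Dlg4. After removal of the libraries' GC trends none was called, and the log2 differences were 0.28 (edgeR adjusted p = 0.140) for Dlg4, 0.18 for Nrgn, 0.11 for Shank1 and -0.07 for Shank3. All 12 thalamus markers and all 12 choroid plexus markers had negative log2 differences in this comparison, none called. Excitatory neuron markers had positive values for 6 of 8 with a median of 0.27, oligodendrocyte markers for 7 of 8 with a median of 0.29 and microglia markers for 7 of 8 with a median of 0.21, also none called. Endothelial markers were negative for 7 of 8, with a median of -0.29. Summed choroid plexus markers were at 2366 to 5964 CPM in VehN and 83.9 to 3791 CPM in NAVI. With both scores as covariates Dlg4 was at 0.40, Shank1 at 0.49 and Nrgn at 0.44, all 3 called (edgeR adjusted p of 0.0460 to 0.0477).

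In WT mice, NAVI against vehicle gave no call among the 8 genes (0% of all genes called in edgeR, 1267 at an unadjusted p under 0.05, 3 called by DESeq2). Dlg4 was at 415, 465, 489 and 501 CPM with NAVI against 470.4, 502, 568 and 606 CPM with vehicle, with 2 NAVI libraries below all of vehicle and a log2 difference of -0.20 (edgeR adjusted p = 0.614, SE 0.0978). Shank1, Shank3, Nrgn and Camk2b also had negative values, of -0.15, -0.20, -0.13 and -0.11. Homer1 was at 138, 157, 172 and 182 CPM with NAVI and 120.0, 121, 137 and 149 CPM with vehicle, a log2 difference of 0.30 (edgeR adjusted p = 0.614, SE 0.140). The WT vehicle group is the reference here and also in the genotype comparison with vehicle. The values of both are therefore not independent, and they are given side by side only.

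The difference between the NAVI effect in 3xTg and that in WT was tested as an interaction. 3 of the 8 genes passed, all with a higher value in 3xTg, where 8.13% of all genes were called, 5.89% higher and 2.24% lower. They were Dlg4 at 0.62 (edgeR adjusted p = 0.0427, SE 0.138), Shank1 at 0.67 (edgeR adjusted p = 0.0436, SE 0.192) and Nrgn at 0.64 (edgeR adjusted p = 0.0466, SE 0.195). Shank3 (0.53, edgeR adjusted p = 0.0955) and Camk2b (0.34, edgeR adjusted p = 0.0841) did not pass, nor did Camk2a (0.19), Homer1 (-0.34) and Ppp3ca (-0.11). In the wider list 11 of 56 genes were higher and none lower, and all 11 were scaffold or spine genes. Among those with the smallest p were Nlgn2 (0.33, edgeR adjusted p = 0.0427), Shank2, the third Shank paralog (0.57), and Dlgap2 (0.43). The 3 members lost their calls without WT NAVI replicate 2, 3 or 4, WT vehicle replicate 1 or 4, 3xTg NAVI replicate 3 or 4, or VehN replicate 2 or 3, with edgeR adjusted p up to 0.137, and Nrgn also without WT vehicle replicate 3 (0.67). Without 3xTg NAVI replicate 2 or VehN replicate 1 the number called was 5. Homer1 was called with a lower value in 3xTg with the thalamus and choroid plexus scores as covariates (-0.43, edgeR adjusted p = 0.0414) and without the 8 libraries highest in thalamus markers (-0.49, edgeR adjusted p = 0.0456). The 11 of the wider list became 0 without any of the same 9 libraries, 17 without 3xTg NAVI replicate 2 and 20 without VehN replicate 1. With no filter on low counts, with only the 16 libraries of the comparison, and with the GC trend removed, none passed; in the last the values were 0.40 for Dlg4, 0.04 for Shank1 and 0.13 for Nrgn. Since VehN has no counterpart among the WT vehicles, an effect of the drug and a difference between vehicles cannot be told apart here. The VehN and WT vehicle libraries also enter the genotype comparison with vehicle, with the opposite sign, so the results are not independent of each other.

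DQ was set against VehD in 3xTg and against vehicle in WT. None of the 8 genes passed in 3xTg (0% of all genes, 299 at an unadjusted p under 0.05 in edgeR, 0 in DESeq2), where all 8 log2 differences were positive and small, from 0.04 for Homer1, Ppp3ca and Shank3 to 0.14 for Dlg4 (SE 0.0978). Dlg4 was at 462, 464, 484 and 536 CPM with DQ and 414, 435, 450.0 and 465 CPM with VehD, with 2 DQ libraries above all of VehD. In WT none passed either (0.00611% of all genes, 1 gene), and the values ran from -0.17 for Nrgn (SE 0.138) to 0.11 for Shank3 (SE 0.152). The difference of the DQ effect between genotypes gave no call (0% of all genes, 467 at an unadjusted p under 0.05 in edgeR, 1 called by DESeq2), with values from -0.07 for Shank3 to 0.26 for Nrgn. The 2 vehicles of 3xTg did not differ in a called gene (0% of all genes, 807 at an unadjusted p under 0.05 in edgeR, 2 called by DESeq2). All 8 genes had log2 differences below 0 in VehN against VehD, those of Camk2a and Camk2b near 0 at -0.0015 and -0.0027. Of all genes 47.6% were above 0. The widest gap was that of Homer1, at 95.1, 114, 138 and 157 CPM in VehN and 123, 151, 169.6 and 180.0 CPM in VehD, a log2 difference of -0.31 (edgeR adjusted p = 0.982, SE 0.140).

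Across the 28 libraries the 8 genes differed in how their log2 CPM varied together. Pearson correlations among Camk2b, Dlg4, Shank1, Shank3 and Nrgn ranged from 0.708 to 0.962 over 10 pairs, the highest being Dlg4 with Shank1 (0.957 within groups). Homer1 and Ppp3ca correlated with each other at 0.676 and with those 5 genes at -0.465 to 0.145. Camk2a correlated with Nrgn at 0.734, with Camk2b, Dlg4 and Shank1 at 0.584 to 0.588, with Shank3 at 0.355 and with Homer1 at 0.0217. These values are descriptions over libraries that share sequencing depth, tissue makeup and base composition effects. For the mean profile of the 8 genes, the 8 other genes with the closest profile among 13981 candidates included Iqsec2 (Pearson r = 0.952, n = 28 libraries), Chst1, Unc13a, Chrm1, Fbxl16, Srf and Agap2 (0.944). The transcripts of the 8 closest genes had a GC content of 53% to 64.4%, and 2 of them, Iqsec2 and Agap2, are in the wider list.

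**Figure D3:**
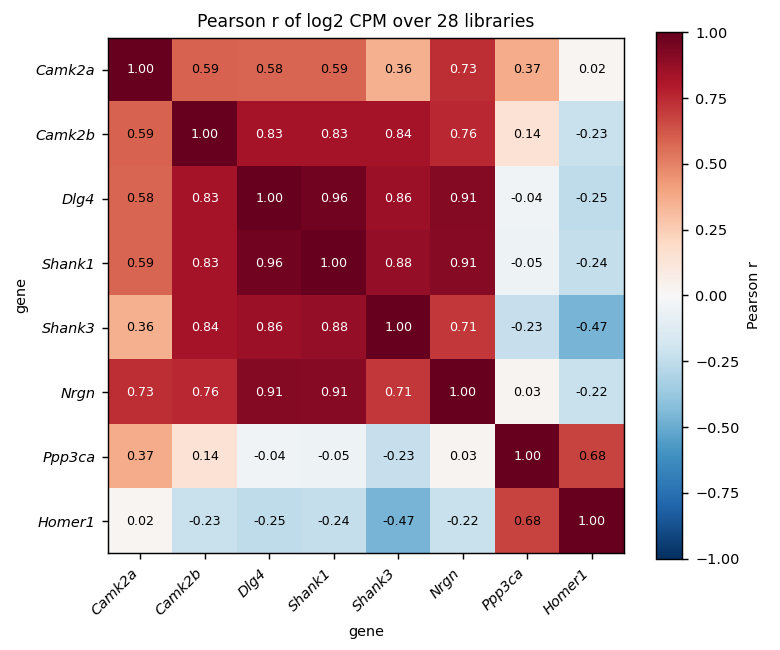
Pearson correlation of log2 CPM over the 28 libraries between each pair of the 8 genes, on a colour scale from -1 to 1. Camk2b, Dlg4, Shank1, Shank3 and Nrgn form a block at 0.708 to 0.962, and Homer1 and Ppp3ca stand apart from it with 0.676 between them.

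The transcripts of the 8 genes differ in GC content: 36.9% for Homer1, 45.4% for Ppp3ca, 53.3% for Camk2a, 54.5% for Dlg4, 56.3% for Camk2b, 58.6% for Nrgn, 61.4% for Shank1 and 61.7% for Shank3. Homer1 lies at the 0.717 percentile of all genes tested, and Shank3 at the 97.8 percentile. The libraries differ in a slope of log2 counts over transcript GC content, taken over 15480 genes and relative to the mean library, from -0.357 to 0.295 log2 units per 10 points of GC. Group means of the slope were 0.0954 in WT vehicle, -0.0644 in WT NAVI, 0.102 in WT DQ, -0.132 in 3xTg VehN, -0.103 in VehD, 0.146 in 3xTg NAVI and -0.0433 in 3xTg DQ. The mean slopes of the groups compared thus differed, with WT vehicle above both 3xTg vehicles and 3xTg NAVI above VehN. Their libraries overlapped, and the difference in slope was not tested. The slope ran from -0.0684 to 0.260 in WT vehicle, -0.357 to 0.113 in VehN, -0.278 to 0.0125 in VehD and -0.0547 to 0.295 in 3xTg NAVI.

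Over the 28 libraries the level of Shank3 correlated with the slope at 0.914 (Spearman 0.888, and 0.877 without the 2 libraries farthest from the median slope). The correlation was 0.878 for Shank1, 0.875 for Dlg4, 0.806 for Nrgn and 0.757 for Camk2b, and these stayed between 0.670 and 0.831 without those 2 libraries. It was 0.390 for Camk2a, -0.413 for Ppp3ca and -0.611 for Homer1. The order of the genes by this correlation is close to their order by GC content, with Camk2b and Nrgn below Dlg4 as the exceptions. Within groups the values were of like size, from 0.734 for Camk2b to 0.912 for Shank3 among the 5 genes of the block. These are descriptions over libraries, and the slope was computed from all genes, among which the 8 are a small share.

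**Figure D4:**
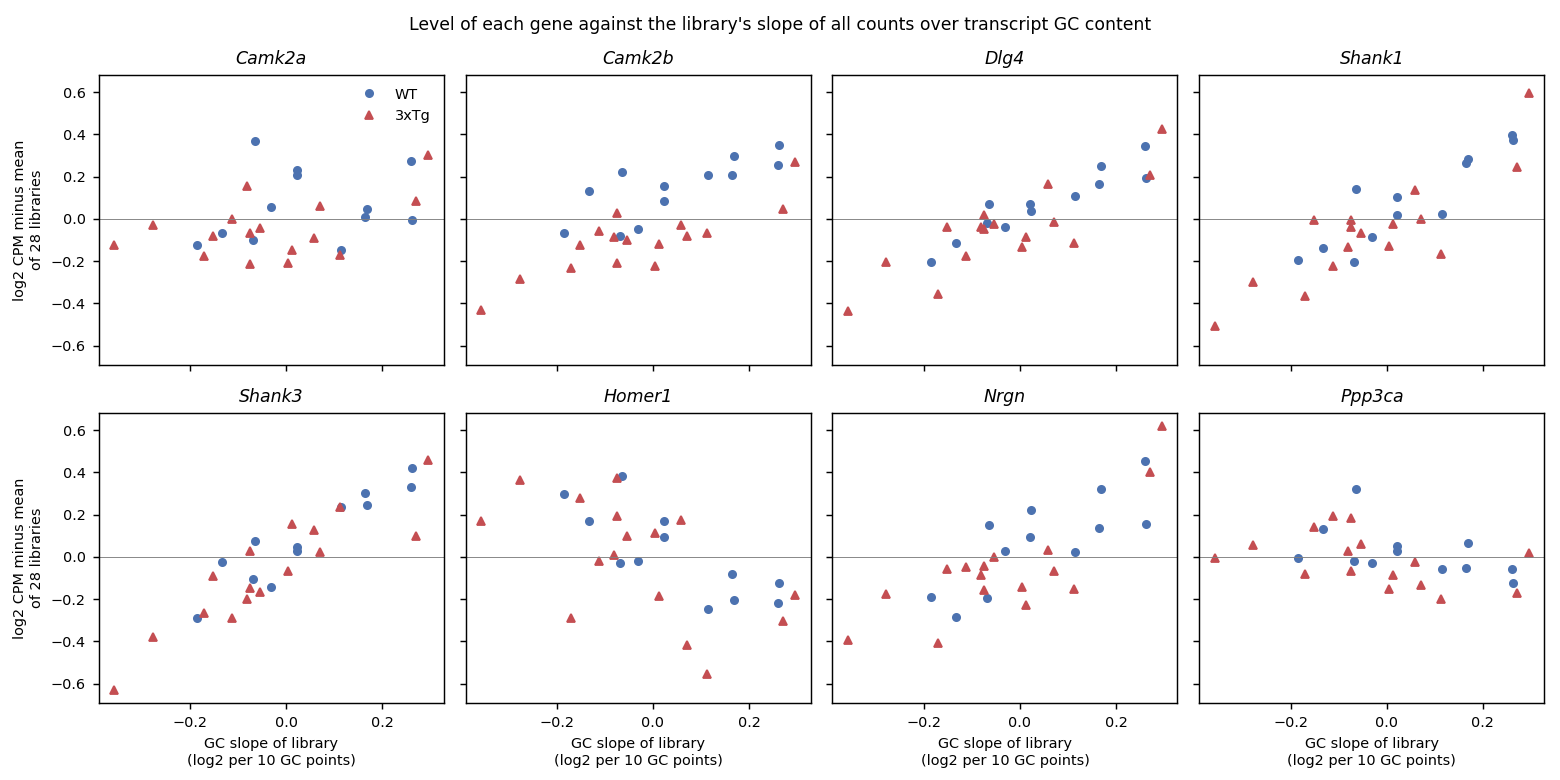
Log2 CPM of each gene relative to its mean (vertical axis) against the GC slope of the library (horizontal axis, log2 per 10 points of GC), with WT libraries as circles and 3xTg libraries as triangles. Shank3 climbs along the slope (r = 0.914) and Homer1 descends (r = -0.611).

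The differences followed GC content in the wider list as well. In the genotype comparison with vehicle, the Spearman correlation between log2 difference and GC content was -0.802 over the 56 genes and -0.527 over 15480 genes; for NAVI in 3xTg it was 0.818 and 0.652. These are correlations across genes, which are not independent replicates. The classes were chosen after the data were seen, and the list with earlier results known. With a GC content of at least 55%, 15 of 23 genes of the list were lower in 3xTg with vehicle. Of all genes of that class 16.6% were lower, and the median of the 23 genes, -0.30, compares with -0.19 for the class. Of the 20 genes under 50% none was lower or higher, in a class where 2.13% of all genes were lower and 9.87% higher. All 11 genes of the list with a called NAVI effect by genotype had a GC content of at least 55%, a class in which 19.1% of all genes were called higher.

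**Figure D5:**
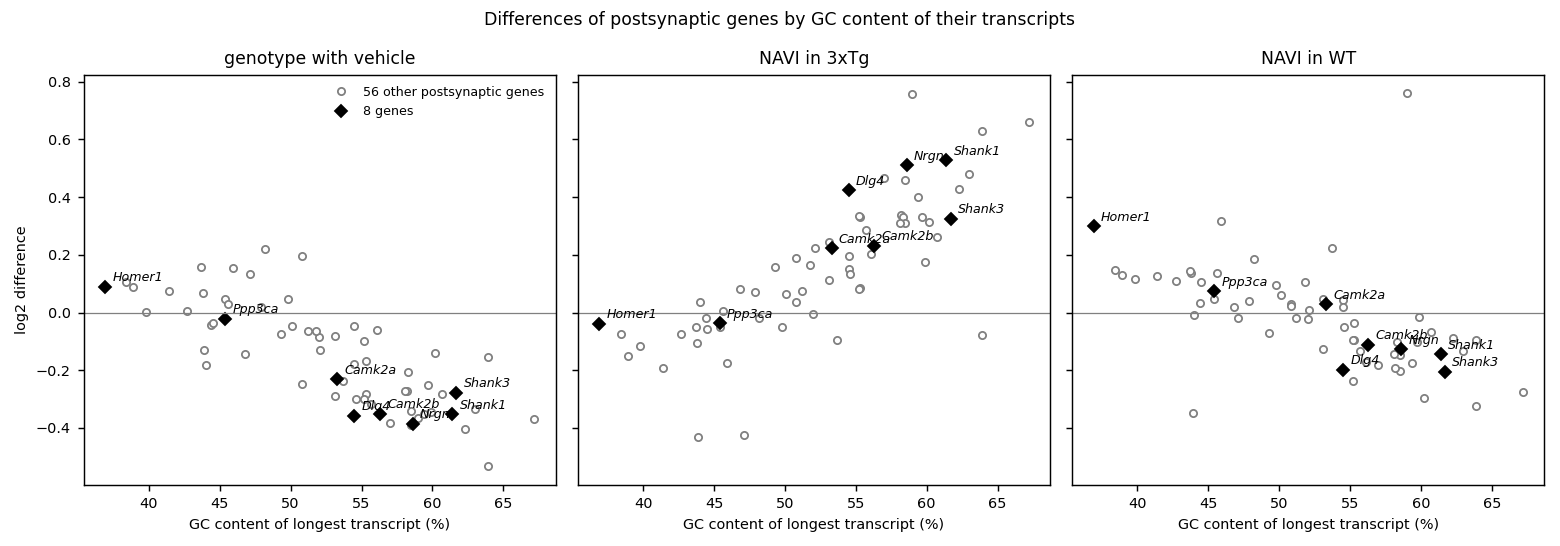
Log2 difference (vertical axis) against transcript GC content in percent (horizontal axis) for the 8 genes (filled diamonds, named) and the 56 other postsynaptic genes (open circles) in 3 comparisons. The cloud slopes down in the genotype comparison with vehicle (Spearman -0.802 over the 56) and up for NAVI in 3xTg (0.818).

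As an alternative, the GC trend of each library was removed before the test; where the trend comes from was not tested. In the genotype comparison with vehicle, Dlg4 at -0.25 (edgeR adjusted p = 0.00422) and Camk2b at -0.19 (edgeR adjusted p = 0.0274) were still called lower, and Nrgn at -0.15 (edgeR adjusted p = 0.213) and Shank1 at -0.06 (edgeR adjusted p = 0.561) were not. Shank3, with the highest GC content, went to -0.01, and Homer1 and Ppp3ca, with the lowest, to -0.10 and -0.13. Camk2b had negative values in the genotype comparison under all 3 treatments on this scale, at -0.19 with vehicle, -0.18 with NAVI and -0.21 with DQ, the last 2 with edgeR adjusted p of 0.0750 and 0.0685. In the main fit Camk2b was at -0.01 with NAVI. With the trend removed, Dlg4 was at -0.0074 with DQ (edgeR adjusted p = 0.964). Over all genes, 1392 were called in the vehicle comparison on this scale.

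Tissue makeup also moved with the genes. Levels of Homer1 and Ppp3ca correlated with the thalamus marker score at -0.628 and -0.607 over the 28 libraries, followed by Camk2a at -0.480, Nrgn at -0.404, Dlg4 at -0.292, Shank1 at -0.266, Camk2b at -0.190 and Shank3 at 0.140. With the 2 libraries farthest from the median score left out these became -0.470 for Homer1, -0.532 for Ppp3ca, -0.394 for Camk2a, -0.297 for Nrgn, -0.132 for Dlg4, -0.115 for Shank1, -0.0877 for Camk2b and 0.168 for Shank3. Camk2b correlated with the hippocampal subfield score at 0.839, Dlg4 at 0.696, Shank3 at 0.669, Shank1 at 0.656, Nrgn at 0.553 and Camk2a at 0.543, and Homer1 at 0.00646. Without the 8 libraries with the highest thalamus score (2 of VehN, 2 of VehD, 1 of 3xTg NAVI, 1 of WT vehicle and 2 of WT DQ), 5 genes were called lower in 3xTg with vehicle, among them Shank3 at -0.56 (edgeR adjusted p = 0.0127). The number called over all genes rose as well in this fit, as given below, so the gain is not particular to these genes. Values of the other comparisons without these libraries, or with the marker scores as covariates, are given in part above and below. How much of any difference came from tissue makeup was not tested.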

How the data were processed

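The starting point was 1 table of raw read counts per gene in 28 libraries, deposited by the authors. Per the submitters' processing notes, STAR, Subread, featureCounts and build mm10 were used, with versions not given in the sources used here. Every count column was matched to a sample, and 0 were left unused. The 8 genes and all lists were chosen with earlier results of these data known.

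Genes were filtered with filterByExpr (minimum count 10) and scaled by TMM, and all 7 groups were fitted in 1 quasi-likelihood model in edgeR 4.0.16 (R 4.3.3, limma 3.58.1), with Benjamini-Hochberg adjustment over 16369 genes and a threshold of 0.05. Log2 CPM used a prior count of 2. DESeq2 1.42.0, RLE scaling, no filter, a replicate block, removal of the GC trend, a fit of only the libraries compared, marker scores as covariates, other vehicles and left-out libraries were alternatives. The GC content is that of the longest GENCODE M21 transcript with a RefSeq match, and its trend per library was estimated over 15480 genes. Scripts were tested on simulated data.

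Named genes are the 8, up to 12 of the wider list with the smallest p with vehicle and up to 4 in each other comparison, the 8 closest profiles, and App and Thy1; some items that this rule selects are not reported here. Depth was 32080861 to 54019519 counts per library.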

Additional observations from a re-analysis of the deposited data

Results flagged for a closer look

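Ppp3ca in WT NAVI replicate 4 stood apart from its group, at 2033 CPM against 1594 to 1657 CPM in the other 3 libraries; the gap was 0.855 of the range, above the limit of 0.829 for 4 samples. It was the 1 case among 56 groups of 4 examined. Chance alone flags about 1 group in 20, so 1 case among 56 is no more than chance gives.

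The effect of NAVI differed between 3xTg and WT by the interaction test for Dlg4 (0.62 on the log2 scale), Shank1 (0.67) and Nrgn (0.64), and in the wider list for Nlgn2 (0.33), Shank2 (0.57) and Dlgap2 (0.43). In each of these 6 genes the value was positive in 3xTg and negative in WT, and neither value was called in the main edgeR fit. After removal of the GC trend none of the 3 was called, the differences were 0.40 for Dlg4, 0.04 for Shank1 and 0.13 for Nrgn, and the values in WT turned to 0.07 for Shank1 and 0.04 for Nrgn. The calls of these 3 genes were also lost without any 1 of 9 of the 16 libraries. The test uses the VehN and WT vehicle libraries, so it also holds the genotype difference with vehicle. With VehN alone as the 3xTg vehicle that difference was -0.43 for Dlg4, -0.45 for Shank1 and -0.43 for Nrgn. With NAVI the genotype difference was 0.19, 0.22 and 0.21 for the same genes.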

How the results depend on the processing

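The number of the 8 genes called moved with the setting. With vehicle the 4 called between genotypes became 2 with the GC trend removed, 2 with thalamus and choroid plexus scores as covariates and 1 with VehD alone. For NAVI in 3xTg the 0 became 3 with those scores as covariates, 4 without the 8 libraries highest in thalamus markers, 3 against the mean of both vehicles and 3 in DESeq2. For the NAVI interaction the 3 became 0 with no filter on low counts, 0 with the GC trend removed, 6 without those 8 libraries (5 higher and Homer1 lower) and 0 with only its own libraries; it was 4 with the covariates (3 higher and Homer1 lower) and 4 in DESeq2 (all higher, with Camk2b). For the genotypes with DQ the 0 became 1 with only its own libraries and 1 in DESeq2. With 1 library left out the number called ranged from 1 to 5 between genotypes with vehicle, 0 to 1 with NAVI, 0 to 5 for NAVI in 3xTg and 0 to 5 for the NAVI interaction. The cause was not tested. Depth gave every one of the 8 genes at least 3353 counts in every library.

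The labels do not say whether equal replicate numbers pair the samples. Deviations of 84 same-numbered pairs correlated at -0.40 to 0.46 (median 0.02), and 52 were not above 0.1. Pairs with different numbers were not correlated for comparison, so this check cannot decide whether the numbers pair the samples. With the replicate number as a block (replicate block), 5 genes were called between genotypes with vehicle, 1 with NAVI, 1 with DQ, 4 for NAVI in 3xTg and 5 for the NAVI interaction; all genes called went from 2142 to 3283 with vehicle, 979 to 1884 with NAVI, 0 to 2317 for NAVI in 3xTg and 1331 to 3315 for the NAVI interaction.

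Over all genes, the 2142 called with vehicle became 623 with VehD alone, 1392 with the GC trend removed, 1118 with only its libraries and 5033 without the 8 libraries, and 873 to 3482 with 1 library left out. The 0 for NAVI in 3xTg became 2000 in DESeq2, 1 with the GC trend removed, 1541 against both vehicles, 1990 with the covariates and 2514 without the 8 libraries, and 0 to 3578 with 1 left out. The 1331 of the NAVI interaction became 3004 in DESeq2, 3372 with the covariates, 4925 without the 8 libraries and 0 with the GC trend removed, no filter or only its libraries, and 0 to 4214 with 1 left out. The 979 with NAVI became 1641 in DESeq2, 535 with only its libraries and 375 to 1920 with 1 left out; the 500 with DQ became 157 without the 8 libraries and 263 to 632 with 1 left out.

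Log2 differences of genes that changed sign were, by setting: RLE normalization, Camk2a -0.0035 in the genotypes with DQ; replicate block, Camk2a -0.0028 in the genotypes with DQ; GC trend of each library removed, Homer1 -0.10 in the genotypes with vehicle, Shank1 -0.090, Shank3 -0.12 and Nrgn -0.048 in the genotypes with NAVI, Shank1 0.033, Nrgn 0.062 and Ppp3ca -0.0097 in the genotypes with DQ, Shank3 -0.065, Homer1 0.21 and Ppp3ca 0.094 in NAVI in 3xTg, Shank3 -0.052 in DQ in 3xTg, Camk2b 0.011, Shank1 0.069, Shank3 0.0047, Nrgn 0.044 and Ppp3ca -0.0038 in NAVI in WT, Shank1 -0.016 in DQ in WT, Camk2a 0.0097 and Camk2b 0.020 in VehN against VehD, Shank3 -0.070, Homer1 0.042 and Ppp3ca 0.10 in the NAVI interaction and Camk2b -0.0034 in the DQ interaction; thalamus and choroid plexus scores as covariates, Ppp3ca 0.039 in the genotypes with vehicle, Camk2a -0.058 and Ppp3ca -0.0093 in the genotypes with DQ, Camk2a -0.0088, Homer1 -0.070 and Ppp3ca -0.017 in DQ in 3xTg, Ppp3ca 0.0035 in DQ in WT, Camk2a 0.0035, Camk2b 0.012 and Ppp3ca 0.056 in VehN against VehD and Shank3 0.066, Homer1 -0.15 and Ppp3ca -0.020 in the DQ interaction; without the 8 libraries with the highest thalamus score, Ppp3ca 0.064 in the genotypes with vehicle, Camk2b 0.039 in the genotypes with NAVI, Camk2a -0.022 and Ppp3ca -0.0071 in the genotypes with DQ, Homer1 -0.12 and Ppp3ca -0.055 in DQ in 3xTg, Camk2a -0.046 in NAVI in WT, Camk2b -0.071, Shank1 -0.17, Shank3 -0.063 and Ppp3ca 0.016 in DQ in WT and Shank3 0.26, Homer1 -0.26 and Ppp3ca -0.072 in the DQ interaction; only the libraries of the comparison, Camk2b 0.0027 in the genotypes with NAVI and Camk2a -0.0087 in the genotypes with DQ; VehN alone as the 3xTg vehicle, Homer1 -0.064 in the genotypes with vehicle; DESeq2, Camk2a -0.0035 in the genotypes with DQ. With 1 library left out, ranges that crossed 0 were Ppp3ca -0.061 to 0.0023 in the genotypes with vehicle, Camk2a -0.12 to 0.048 and Camk2b -0.091 to 0.054 in the genotypes with NAVI, Camk2a -0.071 to 0.052 in the genotypes with DQ, Homer1 -0.14 to 0.095 and Ppp3ca -0.078 to 0.046 in NAVI in 3xTg, Camk2a -0.0026 to 0.12, Homer1 -0.063 to 0.12, Ppp3ca -0.010 to 0.10 and Shank3 -0.037 to 0.13 in DQ in 3xTg, Camk2a -0.055 to 0.11 and Ppp3ca -0.015 to 0.12 in NAVI in WT, Camk2b -0.0050 to 0.11, Homer1 -0.055 to 0.10, Ppp3ca -0.079 to 0.0027 and Shank1 -0.091 to 0.10 in DQ in WT, Camk2a -0.055 to 0.020, Camk2b -0.062 to 0.055 and Ppp3ca -0.10 to 0.034 in VehN against VehD, Homer1 -0.092 to 0.095, Shank1 -0.0017 to 0.20 and Shank3 -0.15 to 0.016 in the DQ interaction.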

Other observations

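Arc, an immediate early gene of the spine, had the same log2 difference of 0.76 for NAVI in 3xTg (SE 0.247, edgeR adjusted p = 0.0705) and of 0.76 in WT (SE 0.246, edgeR adjusted p = 0.614); neither passed, and Arc was picked here after its values were seen. Among the genes closest in profile to single members, Spred1 followed Homer1 at a Pearson correlation of 0.894 and Egr3 at 0.888, and Prkce followed Ppp3ca at 0.894, each over 28 libraries.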
